A study of Homo sapiens with 12 samples.

Results

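In the human hepatoma line HepG2, 37 genes had clearly lower counts in each of 3 CRISPR-transfected lines than in their control line. The genes were chosen by their levels in the comparison of Empty with the other lines. Counts were expressed as CPM, a gene's count per 1000000 counts of the raw library total, and averaged over the 3 wells of a line. A gene was kept if its Empty mean was at least 1 CPM and at least 75% above the highest of the 3 other line means. Among the 26485 genes listed, 49 met this rule, and 12 of those were set aside by symbol (SLC6A12 and GSTA1, for example, belong to transporter and conjugation families), which left 37. They made up 0.298% of the 12423 genes with an Empty mean of 1 CPM or more, and all 37 were among the 15289 genes tested.

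The control line, Empty, received an empty CRISPR vector and is labelled wild type. The other lines, Z2, Z5 and Z9, received vectors with the ZHX3-directed guides sgZHX3-2, sgZHX3-5 and sgZHX3-9 and are labelled ZHX3-depleted. ZHX3 encodes a nuclear protein with zinc fingers and homeoboxes. All cells were transfected with lipofectamine, and blasticidin was added from 48 h afterwards, so that the control carries the vector and the selection too. There is 1 stable line per vector, and the wells of a line are its 3 replicates. A difference between lines therefore cannot be told apart from a difference between 4 separately selected cultures and p-values reflect only well-to-well spread. Because Empty is a single line, every ratio to it has the same 3 wells in its numerator.

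Library totals ranged from 50864744 to 65428204 counts. ZHX3 itself was measured at 33.0, 32.5 and 33.4 CPM in Empty and at 32.2 to 35.4 CPM in the 9 wells of the other lines, a difference of 0.04 ± 0.041 (log2 ± SE, edgeR adjusted p = 0.544), so its RNA level did not separate the lines. Read counts do not show whether a guide cut its target. Genes of hepatocyte identity were abundant in every line, with summed levels of 70930 to 73414 CPM in the Empty wells and 66538 to 72165 CPM in the others. Of 18 such genes 6 rose and 5 fell in the mean of the 3 labelled lines minus Empty (4 and 2 without Empty well a). ALB, for albumin, fell by 0.59 (log2, edgeR adjusted p = 3.1e-07), from 17496 CPM in Empty to 11455, 11412 and 12134 CPM in Z2, Z5 and Z9. The fibroblast genes COL1A2, LUM and VIM stayed at or under 0.0185 CPM in every well and DCN and POSTN were at 0, whereas PDGFRB and ACTA2 of the same list were at 24.5 and 21.6 CPM in Empty. Of 9 endothelial markers KDR and EMCN were at 0, while ESAM and PECAM1 were at 12.9 and 5.10 CPM in Empty. TIE1 rose by 1.13 (edgeR adjusted p = 3.4e-06) and CDH5 by 1.67 (edgeR adjusted p = 1.8e-04), and the summed level of the list was 19.3 to 24.7 CPM in Empty and 22.9 to 30.0 CPM in the others. Of 10 immune markers MS4A1 was at 0 and PTPRC reached at most 0.0381 CPM, while LYZ and CD68 were at 1872 and 46.6 CPM in Empty. Their sum was 1817 to 1988 CPM in Empty and 1624 to 2138 CPM in the others. In bulk RNA, fewer cells of a kind and less RNA per cell cannot be told apart. The lists of replication and mitosis genes moved with the same contrast, with 21 of 30 S phase genes and 25 of 30 mitosis genes lower (edgeR), and 14 and 20 without Empty well a. Their summed level was 1204 to 1569 CPM in the Empty wells for S phase and 997 to 1182 CPM in the others, and 1214 to 1520 against 934 to 1195 CPM for mitosis. Their part in the values below was not tested.

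As background, HepG2 cells keep many hepatocyte functions, among them the secretion of plasma proteins, while they also express fetal and tumour genes that adult liver has largely switched off. Cell surface proteins with leucine-rich repeats, such as the FLRT and Nogo receptor families, carry contacts between cells. Enzymes of the Golgi sulfate or extend sugar chains, and flippases move lipids from the outer to the inner layer of membranes. All of these kinds of protein occur among the 37 genes.

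The upstream sequences are shown for 5 of the genes because the genes were lower together in the 3 lines: FLRT2 and ALPL, which had the largest ratios, ATP10D with its very even Empty wells, and the neighbours ZIC5 and ZIC2. Each is the 250 bases before the RefSeq start, on the gene's strand, in build GRCh38.p14. FLRT2 is chr14:85529894-85530143 on the plus strand, ALPL chr1:21508734-21508983 (plus), ATP10D chr4:47485025-47485274 (plus), ZIC5 chr13:99971910-99972159 (minus) and ZIC2 chr13:99981534-99981783 (plus). Capitals mark matches on either strand of 7 motifs. These are CCAAT, known from NF-Y, the TATA box as TATAAA, the AP-1 site as TGANTCA, the core of the NRF2 site as TGACNNNGC, the TEAD site as GGAATG, part of the HNF4 and TCF sites as CAAAG, and the E box as CACGTG.

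FLRT2: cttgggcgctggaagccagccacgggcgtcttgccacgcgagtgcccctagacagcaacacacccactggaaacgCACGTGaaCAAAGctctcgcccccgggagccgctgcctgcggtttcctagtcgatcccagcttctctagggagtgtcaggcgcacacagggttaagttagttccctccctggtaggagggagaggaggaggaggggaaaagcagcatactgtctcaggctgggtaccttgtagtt

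ALPL: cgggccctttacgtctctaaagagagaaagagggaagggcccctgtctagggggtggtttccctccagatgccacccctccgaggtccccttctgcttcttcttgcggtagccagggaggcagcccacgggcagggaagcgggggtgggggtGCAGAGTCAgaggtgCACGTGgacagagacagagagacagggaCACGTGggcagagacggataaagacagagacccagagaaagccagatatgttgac

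ATP10D: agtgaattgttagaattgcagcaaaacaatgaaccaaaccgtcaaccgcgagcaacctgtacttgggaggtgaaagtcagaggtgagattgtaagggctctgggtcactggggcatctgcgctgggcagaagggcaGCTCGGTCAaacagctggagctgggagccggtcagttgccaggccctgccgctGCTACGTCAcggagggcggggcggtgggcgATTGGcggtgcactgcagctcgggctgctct

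ZIC5: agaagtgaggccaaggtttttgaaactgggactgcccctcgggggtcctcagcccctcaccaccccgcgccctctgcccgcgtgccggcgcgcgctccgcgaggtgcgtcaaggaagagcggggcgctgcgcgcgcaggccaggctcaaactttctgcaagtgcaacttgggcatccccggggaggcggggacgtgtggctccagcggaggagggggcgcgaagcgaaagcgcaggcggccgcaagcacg

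ZIC2: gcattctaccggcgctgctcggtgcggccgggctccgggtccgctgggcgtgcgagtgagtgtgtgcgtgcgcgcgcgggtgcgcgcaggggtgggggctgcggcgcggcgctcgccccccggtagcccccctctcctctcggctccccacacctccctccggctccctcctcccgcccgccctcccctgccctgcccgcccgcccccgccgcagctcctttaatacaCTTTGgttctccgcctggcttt

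The FLRT2 window held 1 CACGTG and 1 CAAAG, the ALPL window held 2 CACGTG and 1 TGACNNNGC, and the ATP10D window held 2 TGACNNNGC and 1 CCAAT. The ZIC2 window held 1 CAAAG, and none of the 7 motifs matched in the ZIC5 window. No motif overlapped another in these 5 windows. Of the 37 genes 29 had an entry in the RefSeq promoter table. CCAAT lay in 20.7% of their windows, against 32.0% of the 35116 windows in the table and 34.7% of the 10899 windows of tested genes. In the same order, CAAAG lay in 41.4%, 42.1% and 34.9%, and CACGTG in 6.90%, 6.34% and 8.73%. The shares were 10.3%, 10.9% and 12.1% for TGACNNNGC and 10.3%, 11.9% and 9.62% for GGAATG. They were 6.90%, 10.7% and 5.80% for TATAAA and 3.45%, 6.57% and 4.09% for TGANTCA. For CAAAG and the E box, TATA and TEAD motifs the side on which the members fell thus differed between the comparison sets. The median GC content of the 29 windows was 66.8%, against 64.8% for the 10899 tested genes with a window, and the median observed over expected CpG was 0.623 against 0.806. A match is only a run of letters and marks no known binding site.

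The ratio of the Empty mean to the highest other line mean had a median of 2.27 over the 37 genes. It reached at least 2 in 26 genes, at least 3 in 9 and at least 4 in 4, and the other 11 genes lay between the limit and 2. In all 37 the lowest Empty well lay above the highest well of the other lines. Of all tested genes 7.52% had that order of wells, and 12.6% were called lower in the mean of the 3 lines than in Empty (edgeR adjusted p under 0.05), but the rule used this contrast and nothing is read from it. The ratio of the lowest Empty well to the highest other well ranged upwards from 1.11 in C9orf152 and had a median of 1.70. The summed CPM of the 37 genes was 259, 269 and 247 in the Empty wells and 97.3 to 122 in the other 9. UNC93A alone supplied much of this, and without it the sums were 167 to 183 and 62.8 to 73.7 CPM.

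**Figure D1:**
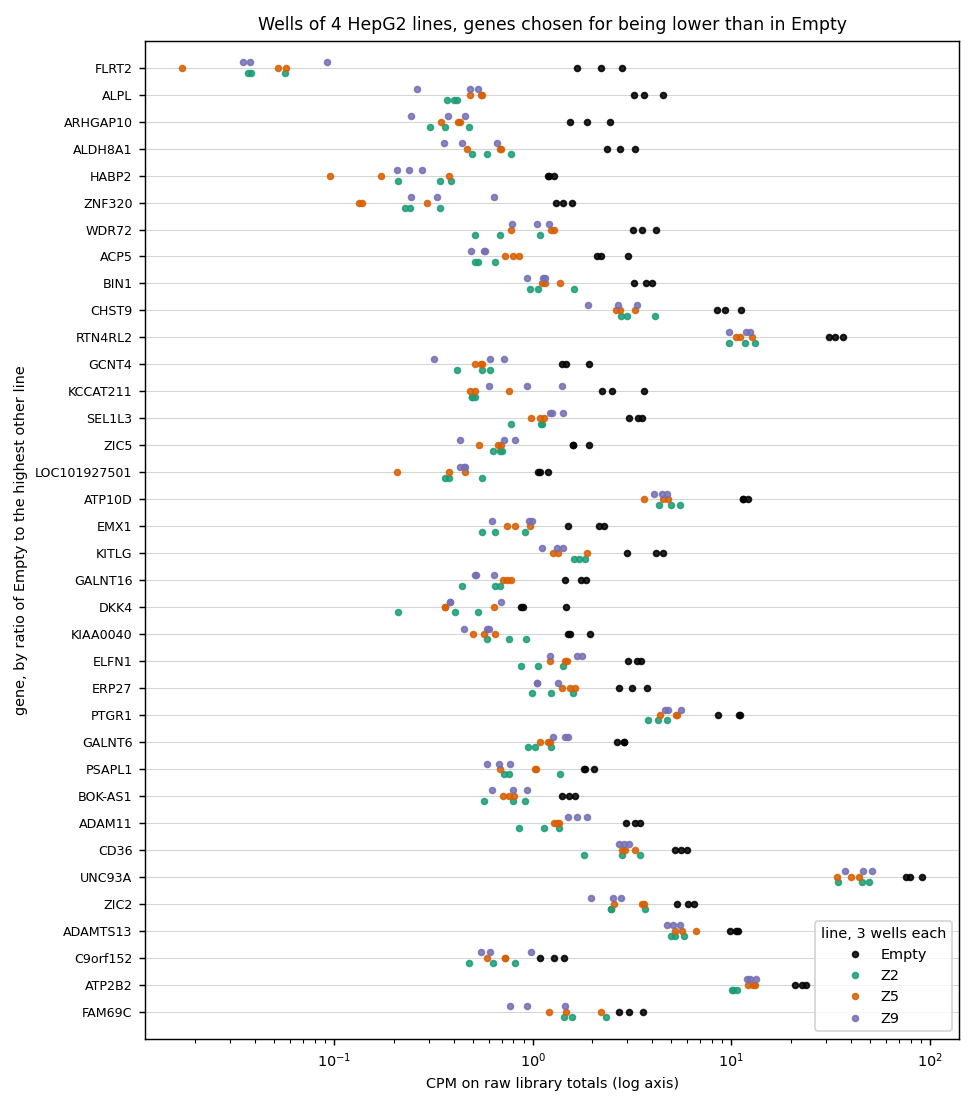
CPM on raw library totals (log axis) in every well for 36 of the 37 genes, ordered by the ratio of the Empty mean to the highest other line mean. Each point is 1 well of Empty (black), Z2, Z5 or Z9, and the 3 black points of each row lie to the right of the other 9, as the rule for choosing the genes favours.

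Among the surface and signalling proteins, FLRT2, a leucine-rich repeat adhesion protein, stood furthest from the rest. Its level was 2.81, 1.67 and 2.20 CPM in Empty, 0.0569, 0.0381 and 0.0369 CPM in Z2, 0.0172, 0.0571 and 0.0520 CPM in Z5 and 0.0376, 0.0347 and 0.0918 CPM in Z9. The Empty wells were all more than 10 times any other well, and the wells of Z2, Z5 and Z9 lay among each other. These levels are 384 counts over the 3 Empty wells and 7, 7 and 9 counts over those of Z2, Z5 and Z9, so that FLRT2 RNA was nearly absent in all of them. Against the 9 other wells together the ratio of counts was 47.2, with an exact 95% interval of 31.0 to 75.4 that covers counting error only.

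RTN4RL2, a GPI-anchored relative of the Nogo receptor, was well measured. It was at 33.4, 36.4 and 31.0 CPM in Empty, 9.76, 13.1 and 11.7 CPM in Z2, 10.6, 11.1 and 12.7 CPM in Z5 and 9.71, 11.9 and 12.5 CPM in Z9. The 3 labelled lines were alike, with means of 11.5 ± 1.66, 11.4 ± 1.09 and 11.4 ± 1.48 CPM (SD, n = 3), and the Empty mean of 33.6 ± 2.71 CPM was 2.92 times the highest of them. UNC93A, a membrane protein of the transporter-like UNC93 family, had the highest level of the 37 genes per kilobase of exon, 30.4 RPKM in Empty, followed by RTN4RL2 at 14.1, while no other gene with a length passed 2.71. UNC93A was at 75.4, 91.7 and 79.4 CPM in Empty, 34.5, 49.1 and 45.4 CPM in Z2, 33.9, 40.2 and 43.8 CPM in Z5 and 37.3, 45.8 and 51.2 CPM in Z9. Every Empty well was higher than every other well, and the ratio was 1.84, but it was 1.73 without Empty well b, 1.74 without Z2 well a and 1.70 without Z9 well a, each under the limit of the rule.

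The other surface genes were of lower level. KITLG, the ligand of the KIT receptor, was at 3.90 ± 0.830 CPM in Empty and 1.72 ± 0.108, 1.49 ± 0.327 and 1.29 ± 0.163 CPM in Z2, Z5 and Z9. CD36, a receptor for fatty acids and lipoproteins, was at 5.58 ± 0.388 CPM in Empty and 2.70 ± 0.828, 3.00 ± 0.230 and 2.88 ± 0.155 CPM in the others. These are scales of library share for each gene, so their order between genes carries no meaning. ELFN1, a synaptic adhesion protein with leucine-rich repeats, had an Empty mean of 3.29 ± 0.238 CPM and a ratio of 2.12. SEL1L3, a membrane protein with SEL1 repeats, had 3.33 ± 0.263 CPM and a ratio of 2.56, and ADAM11, a catalytically inactive surface protease relative, 3.23 ± 0.271 CPM and 1.92. DKK4, a secreted WNT antagonist, had 1.08 ± 0.341 CPM in Empty and a ratio of 2.22, and it sits at the level limit of the rule, since without Empty well a its Empty mean falls under 1 CPM.

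Several members are enzymes. ALPL, the tissue-nonspecific alkaline phosphatase of liver and bone, was at 3.62, 4.53 and 3.24 CPM in Empty, 0.418, 0.400 and 0.369 CPM in Z2, 0.482, 0.552 and 0.554 CPM in Z5 and 0.263, 0.486 and 0.532 CPM in Z9. Its Empty mean, 3.80 ± 0.664 CPM, was 7.17 times the highest other mean, that of Z5. ACP5, the tartrate-resistant acid phosphatase, was at 3.03, 2.22 and 2.11 CPM in Empty, 0.532, 0.515 and 0.646 CPM in Z2, 0.793, 0.724 and 0.849 CPM in Z5 and 0.489, 0.573 and 0.569 CPM in Z9. All Z5 wells of ACP5 were above all Z2 and Z9 wells, and the ratio to Z5 was 3.11. ALDH8A1, an aldehyde dehydrogenase of tryptophan breakdown, was at 3.28, 2.36 and 2.74 CPM in Empty, 0.494, 0.591 and 0.775 CPM in Z2, 0.465, 0.686 and 0.693 CPM in Z5 and 0.357, 0.659 and 0.440 CPM in Z9. Its ratio was 4.51, and the wells of the 3 labelled lines lay among each other. PTGR1, an enzyme that acts on prostaglandins and leukotriene B4, was at 10.9, 11.1 and 8.59 CPM in Empty, 4.73, 4.27 and 3.82 CPM in Z2, 5.31, 5.28 and 4.36 CPM in Z5 and 4.66, 4.82 and 5.58 CPM in Z9. Every Empty well was above every other well, and the ratio of the means was 2.03.

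Enzymes that build sugar chains included CHST9, which sulfates N-acetylgalactosamine. It was at 11.2, 9.34 and 8.44 CPM in Empty, 2.77, 4.14 and 2.97 CPM in Z2, 3.27, 2.63 and 2.74 CPM in Z5 and 2.69, 1.89 and 3.36 CPM in Z9. Z2 well b was the highest of the labelled wells, and the ratio of the means was 2.93. GCNT4, which adds branches to mucin-type glycans, was at 1.40, 1.93 and 1.47 CPM in Empty, 0.418, 0.553 and 0.609 CPM in Z2, 0.551, 0.514 and 0.554 CPM in Z5 and 0.320, 0.607 and 0.716 CPM in Z9. Its line means of 0.526 to 0.548 CPM lay within the spread of the wells. GALNT16 and GALNT6, which start mucin-type O-glycans, had Empty means of 1.68 ± 0.209 and 2.82 ± 0.126 CPM and ratios of 2.26 and 2.00.

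Among secreted proteins and those of the endoplasmic reticulum, HABP2, a plasma protease made by liver, was at 1.20, 1.28 and 1.21 CPM in Empty, 0.209, 0.343 and 0.388 CPM in Z2, 0.172, 0.0952 and 0.381 CPM in Z5 and 0.207, 0.278 and 0.239 CPM in Z9. Its Empty wells were very even and its ratio was 3.92. ADAMTS13, the protease that cuts von Willebrand factor, was at 9.81, 10.6 and 10.8 CPM in Empty, 4.99, 5.22 and 5.76 CPM in Z2, 5.20, 5.62 and 6.65 CPM in Z5 and 5.08, 4.75 and 5.51 CPM in Z9. All Empty wells were above all others, and the ratio was 1.79, close to the limit. ERP27, a relative of protein disulfide isomerase, had an Empty mean of 3.22 ± 0.536 CPM and a ratio of 2.11, and PSAPL1, which resembles the lysosomal protein prosaposin, 1.89 ± 0.121 CPM and 1.99.

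The ion and lipid pumps were ATP2B2 and ATP10D. ATP2B2, a calcium pump of the plasma membrane, was at 22.6, 21.0 and 23.8 CPM in Empty, 10.2, 10.7 and 10.1 CPM in Z2, 12.1, 13.1 and 12.9 CPM in Z5 and 12.5, 13.4 and 12 CPM in Z9. All Z2 wells were below all Z5 and Z9 wells, and the ratio to Z5 was 1.77. ATP10D, a flippase of sphingolipids and other lipids, was at 12.2, 11.5 and 11.4 CPM in Empty, 4.31, 5.49 and 4.98 CPM in Z2, 4.81, 4.53 and 3.64 CPM in Z5 and 4.74, 4.48 and 4.07 CPM in Z9. The labelled wells lay among each other, and the ratio was 2.37.

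Of the transcription factors, ZIC5 and ZIC2 encode zinc finger proteins of early development and their starts lie 9875 bases apart on chromosome 13, on opposite strands. ZIC5 was at 1.93, 1.59 and 1.60 CPM in Empty, 0.702, 0.629 and 0.683 CPM in Z2, 0.534, 0.667 and 0.693 CPM in Z5 and 0.433, 0.816 and 0.716 CPM in Z9. ZIC2 had an Empty mean of 5.95 ± 0.599 CPM and other means of 2.89 ± 0.698, 3.26 ± 0.587 and 2.43 ± 0.431 CPM. The ratios were 2.54 for ZIC5 and 1.82 for ZIC2, while ZIC1 and ZIC4 had no counts in any library. ZNF320, a zinc finger protein, was at 1.57, 1.43 and 1.31 CPM in Empty, 0.342, 0.229 and 0.240 CPM in Z2, 0.293, 0.133 and 0.139 CPM in Z5 and 0.640, 0.243 and 0.330 CPM in Z9. Its highest labelled well was Z9 a, and its ratio was 3.56. EMX1, a homeobox factor of the forebrain, had an Empty mean of 1.99 ± 0.422 CPM and a ratio of 2.33.

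Of the remaining protein-coding genes, ARHGAP10, which inactivates small GTPases, was at 2.46, 1.55 and 1.88 CPM in Empty, 0.361, 0.305 and 0.480 CPM in Z2, 0.345, 0.419 and 0.433 CPM in Z5 and 0.376, 0.243 and 0.459 CPM in Z9. In CPM the Empty wells spread more than the labelled ones, whose means were lower. The SD was 0.459 CPM in Empty and 0.0894, 0.0475 and 0.109 CPM in Z2, Z5 and Z9. The ratio was 4.92. BIN1, a BAR-domain protein that bends membranes, was at 3.97, 3.74 and 3.24 CPM in Empty, 0.968, 1.07 and 1.61 CPM in Z2, 1.15, 1.12 and 1.37 CPM in Z5 and 1.13, 1.16 and 0.936 CPM in Z9. Its ratio was 3.00. WDR72, a WD-repeat protein needed for tooth enamel, was at 3.54, 3.22 and 4.19 CPM in Empty, 0.513, 1.09 and 0.683 CPM in Z2, 0.775, 1.24 and 1.28 CPM in Z5 and 0.790, 1.21 and 1.05 CPM in Z9, and its ratio was 3.32. KIAA0040 had an Empty mean of 1.67 ± 0.240 CPM and a ratio of 2.20, C9orf152 1.27 ± 0.175 CPM and 1.78, and FAM69C (now DIPK1C) 3.12 ± 0.451 CPM and 1.76. FAM69C was the gene nearest the ratio limit, and its ratio passed below the limit when Empty well b, Z2 well a, Z2 well c or Z5 well a was left out.

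The 3 members that are not annotated as protein-coding or could not be matched were KCCAT211, LOC101927501 and BOK-AS1. KCCAT211, a long noncoding RNA now named LINC02015, had an Empty mean of 2.79 ± 0.743 CPM and a ratio of 2.84. LOC101927501 was at 1.20, 1.07 and 1.09 CPM in Empty, 0.361, 0.381 and 0.554 CPM in Z2, 0.379, 0.457 and 0.208 CPM in Z5 and 0.433, 0.451 and 0.459 CPM in Z9. BOK-AS1, the antisense RNA of the apoptosis gene BOK, had an Empty mean of 1.52 ± 0.113 CPM and a ratio of 1.94. The counting's strand setting is not given in the sources used here. In GENCODE release 29 the whole span of 21 of the 37 genes, introns included, overlaps that of another gene on either strand. Where exons overlap too, reads cannot be told apart with certainty from those of the other gene. Overlap of exons was not examined.

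The rule's limits fall within a continuum, and 29 of the 37 genes met the rule whichever well was left out. Those that did not include DKK4, C9orf152, UNC93A, ZIC2, ADAMTS13, ATP2B2 and FAM69C. The members nearest inside the ratio limit were ZIC2 (1.82), ADAMTS13 (1.79), C9orf152 (1.78), ATP2B2 (1.77) and FAM69C (1.76). Just outside it were TGFB3 (1.73), ANKRD1 (1.73), AUNIP (1.72), KCP (1.70) and CNTNAP2 (1.69). On the level side, DKK4, LOC101927501 and HABP2 lay just above 1 CPM, at 1.08, 1.12 and 1.23 CPM, and MDFI just below it at 0.939 CPM with a ratio of 9.37. In all, 17 genes between 0.5 and 1 CPM met the ratio, MDFI among them. The members are genes of low count: the Empty mean had a median of 2.82 CPM against 28.2 CPM for all genes at 1 CPM or more, and it was under 5 CPM in 28 of them. Their coefficient of variation over the Empty wells had a median of 12.2%, against 4.78% for those genes. For members under 5 CPM it was 13.7%, against 11.8% for the 2004 genes with an Empty mean of 1 to 5 CPM. Over the wells of Z2, Z5 and Z9 it was 23.1%, 13.2% and 19.5% for these members, which were lower there, against 13.4%, 11.2% and 11.2% for the same genes.

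The levels of the labelled lines were then compared with each other. The rule used the highest of their means as a limit for all 3 and not their order, so it caps how high any of them can be and these tests are not fully independent of it. No member passed an adjusted p of 0.05 in edgeR's quasi-likelihood test for Z9 minus Z2, Z9 minus Z5, Z5 minus Z2 or any difference among the 3 lines. Of the 15289 genes tested 5.17%, 1.52%, 0.00654% and 2.24% were called. At an unadjusted p under 0.05 there were 7, 7, 2 and 6 of the 37 members, and 23.9%, 14.5%, 10.3% and 21.3% of all genes. The DESeq2 test called 4, 0, 0 and 1 of the 37 members in these 4 tests, where it called 9.87%, 3.24%, 0.0589% and 8.05% of all genes. With the replicate letter as a block, edgeR called 3, 0, 0 and 2 members, and 9.89%, 3.19%, 0.00654% and 6.38% of all genes. The edgeR shares of all genes depended on single wells. For Z9 minus Z2 the share was 15.5% without Z2 well a, where ADAM11 and FAM69C were called, and 0.484% without Z9 well b. It ran from 0.239% without Z5 well c to 4.22% without Z2 well b for Z9 minus Z5, and from 0.323% without Z9 well a to 11% without Z2 well a for any difference among the lines. In Z5 minus Z2 the number of genes called went from 1 to 153 without Z2 well a. The SE of a member's difference had a median of 0.24 on the log2 scale for Z9 minus Z2, against 0.086 for all genes.

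The differences themselves spread from -0.78 to 0.94 (log2) for Z9 minus Z2, from -0.65 to 1.04 for Z9 minus Z5 and from -0.51 to 0.53 for Z5 minus Z2. Their medians were 0.02, -0.04 and 0.09, with 19, 16 and 23 of 37 above 0. The median size without sign was 0.26, 0.20 and 0.19, against 0.12, 0.09 and 0.09 over all genes. The highest of the labelled lines was Z2 for 10 genes, Z5 for 12 and Z9 for 15, and the ratio of the highest to the lowest labelled line had a median of 1.30 and a range of 1.01 to 2.15.

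ATP2B2 came closest to a difference. It was higher in Z9 than in Z2 by 0.26 ± 0.076 (log2 ± SE, edgeR adjusted p = 0.0560) and in Z5 than in Z2 by 0.30 ± 0.076 (edgeR adjusted p = 0.408), and for any difference among the 3 lines the adjusted p was 0.0664. The wells of Z2 lay apart from those of Z5 and Z9, as the values above show. ADAM11 was at 1.12 ± 0.246 CPM in Z2 and 1.68 ± 0.185 CPM in Z9, a difference of 0.57 ± 0.17 (edgeR adjusted p = 0.0657). KCCAT211 was at 0.502 ± 0.00911 CPM in Z2 and 0.984 ± 0.405 CPM in Z9, a difference of 0.94 ± 0.31 (edgeR adjusted p = 0.0779), and its Z9 wells spread from 0.606 to 1.41 CPM. FAM69C went the other way, with 1.78 ± 0.477 CPM in Z2 and 1.05 ± 0.354 CPM in Z9, a difference of -0.78 ± 0.27 (edgeR adjusted p = 0.0942), and the wells of the lines overlapped. For FLRT2 the SE of the difference between lines was 0.71, at 7 to 9 counts per line, so only a large difference could have been detected. A p above 0.05 does not show that the lines are alike.

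**Figure D2:**
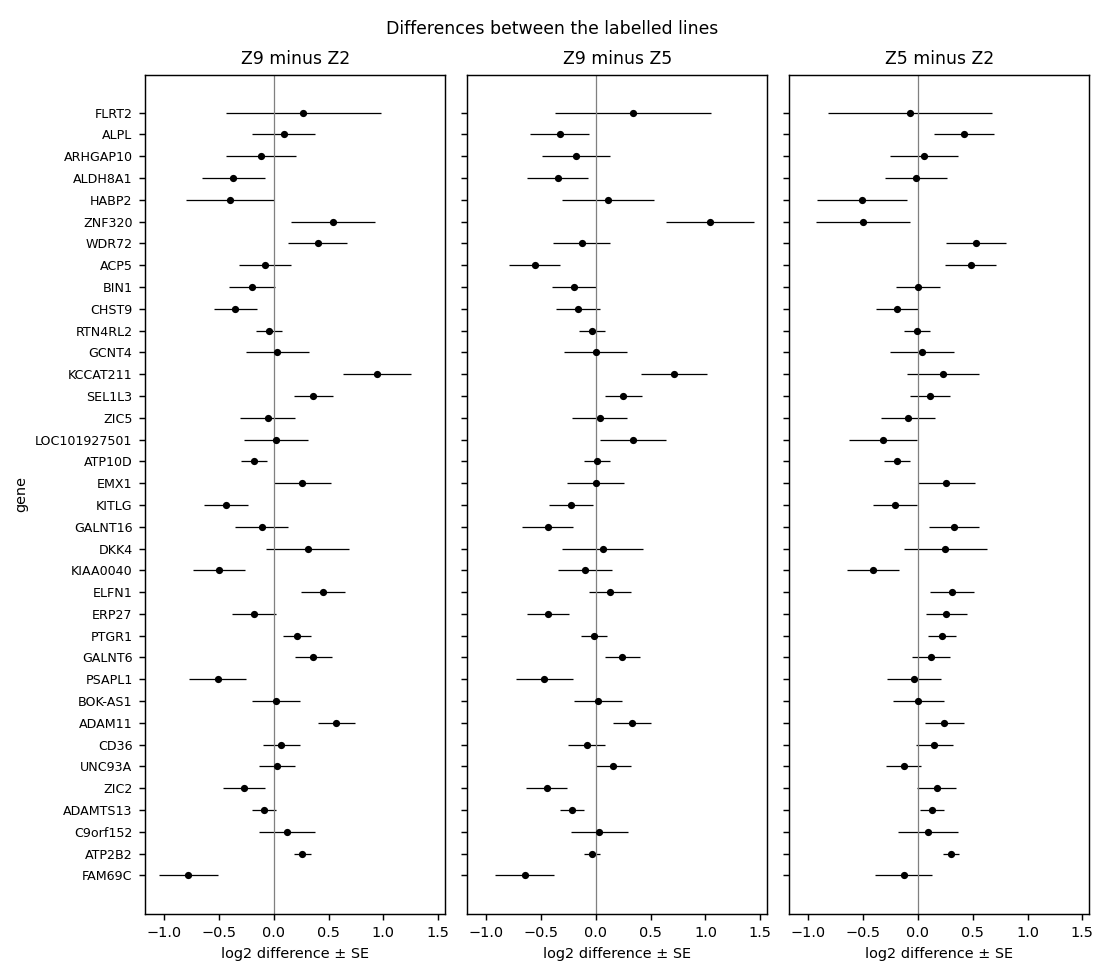
Log2 differences between the labelled lines for 36 of the 37 genes (edgeR), points with bars of 1 SE. The 3 panels are Z9 minus Z2, Z9 minus Z5 and Z5 minus Z2, and the points scatter on both sides of 0, from -0.78 to 0.94 in the first panel.

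Relatives of the members were tested in the mean of Z2, Z5 and Z9 minus Empty, since the rule did not choose them. Of all 15289 genes 12.6% were called lower and 13.0% higher in this comparison by edgeR, with a median log2 of 0.0029, and the Empty wells are the ones used to choose the members. Without Empty well a 2107 genes were called, against 3911 with it. The lists and relatives were picked with earlier results known. FLRT3, a sister of FLRT2, rose by 1.04 ± 0.16 (log2 ± SE, edgeR adjusted p = 3.3e-04), from 6.0 CPM in Empty to 13.3, 12 and 11.9 CPM in Z2, Z5 and Z9. FLRT1 was at -0.21 ± 0.22 (edgeR adjusted p = 0.520). The side of FLRT2 was set by the rule, so only those of FLRT3 and FLRT1 were tested.

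ATP10D was likewise chosen for being lower, and its relatives were tested. ATP10A, another flippase, rose by 1.52 ± 0.10 (edgeR adjusted p = 6.2e-09), from 6.37 CPM in Empty to 20.9, 17.3 and 17.0 CPM. Of 12 other flippase genes tested 4 rose (ATP10A, ATP8B1 by 0.63, ATP8A1 by 0.40 and ATP11A by 0.17). For the calcium pumps, ATP2B4 fell by 0.38 (edgeR adjusted p = 5.7e-05) and ATP2B1 by 0.19 (edgeR adjusted p = 0.0156), and ATP2B1 lost its call without Empty well a or c, with adjusted p up to 0.112. The Nogo receptor list of 9 genes held 3 that rose, NGFR by 1.29, RTN2 by 0.39 and RTN3 by 0.25. RTN4R was at -0.34 (edgeR adjusted p = 0.105), with 2.07 CPM in Empty, 2.10 and 2.01 CPM in Z2 and Z5 and 1.04 CPM in Z9. Its lines thus differed (edgeR adjusted p = 0.0184 for any difference among the 3), and only Z9 was below Empty by much. RTN4RL1 was at -0.74 (edgeR adjusted p = 0.170).

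Among glycan enzymes, 3 of 10 other GALNT genes rose, GALNT3 by 1.45, GALNT2 by 0.34 and GALNT11 by 0.26, while GALNT6 and GALNT16 were chosen for being lower. GCNT2 fell by 0.64 (edgeR adjusted p = 4.6e-06), 1 of 4 other GCNT genes tested. Of 12 tested genes of the sulfotransferase list 2 rose, SLC35B3 by 0.21 and PAPSS2 by 0.74, and PAPSS2 lost its call without Empty well a or b (adjusted p up to 0.0735). Neither is a CHST gene, and none of the 8 other CHST genes tested was called in either direction. PTGR2, the relative of PTGR1, rose by 0.62 (edgeR adjusted p = 7.5e-05), from 4.84 CPM to 8.39, 7.23 and 6.91 CPM. The other ADAMTS genes had 3 of 9 that rose, ADAMTS2 by 1.55, ADAMTS16 by 1.27 and ADAMTS9, which lost its call when any of the Empty wells was left out (adjusted p up to 0.161).

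For the aldehyde and alcohol dehydrogenases 5 of 16 other genes fell and 1 rose. ALDH1A1 fell by 0.60 (edgeR adjusted p = 4.9e-07), ALDH2 by 0.36 and ADH4 by 0.47, and ALDH6A1 rose by 0.19. The others, ADH5 and ALDH7A1, lost their calls without Empty well a or some other wells (adjusted p up to 0.217 and 0.288), and 3 to 7 genes of the list fell over the wells left out. Of 24 other ARHGAP genes 4 fell and 2 rose (3 to 6 and 2 to 4 with a well left out), the largest being ARHGAP23, which rose by 1.38. DKK1, a relative of DKK4, fell by 0.70 (edgeR adjusted p = 0.00244), from 180 CPM to 123, 117 and 95 CPM. In the WNT list of 17 other genes 7 rose and 2 fell, or 4 and 1 without Empty well a, with APCDD1 up by 2.82 and NOTUM by 0.56, both inhibitors of WNT signalling. KIT, the receptor for KITLG, had 1, 7, 5 and 2 counts over the wells of Empty, Z2, Z5 and Z9, so that the ligand was measured where its receptor was nearly absent. In the list of 15 other genes of that pathway 4 rose and 2 fell, or 2 and 1 without Empty well a, with STAT5A up by 0.70 and PTPN11 down (-0.19).

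**Figure D3:**
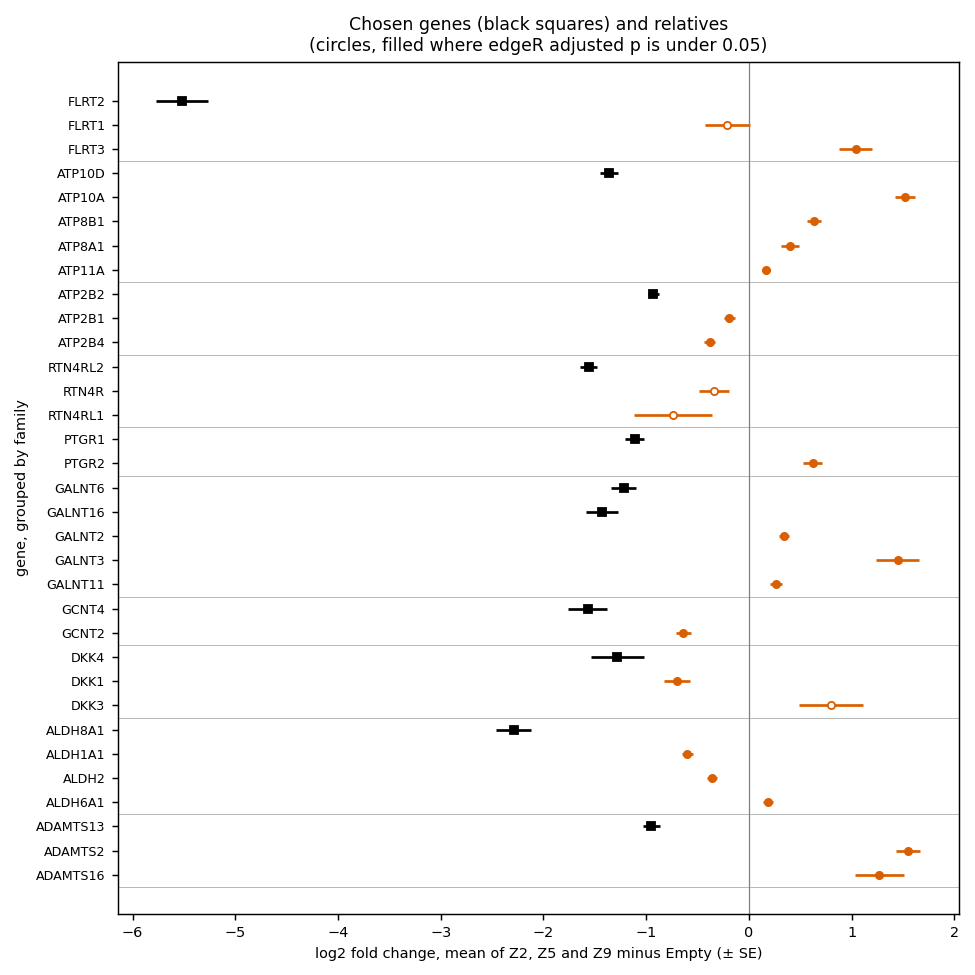
Log2 fold changes of the mean of Z2, Z5 and Z9 minus Empty (edgeR, bars of 1 SE) for 11 chosen genes (black squares) and relatives (circles, filled where the adjusted p is under 0.05). All chosen genes lie to the left of 0, as the rule required. FLRT3, ATP10A, PTGR2 and GALNT3 are among the relatives to the right. ATP2B1, ATP2B4, GCNT2, DKK1, ALDH1A1 and ALDH2 were called lower and lie to the left, on the same side as the chosen genes.

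The positions of the 36 members with a RefSeq match fell on 19 chromosomes, and 4 were on chromosome 4 (11.1% of them, against 3.32% of tested genes), so they were not grouped at a single locus. Their exonic length had a median of 4776 bases, against 4726 for tested genes. The next tested gene on each side was looked at, at any distance. Some overlap a member, while TSN lies 5280170 bases from BIN1 and SEL1L 3996291 bases from FLRT2. Of the 70 next tested genes that are not members 16 were called lower and 5 higher by edgeR, against 12.6% and 13.0% of all genes. Their median log2 was -0.06. These neighbours were added after the values were seen. AQP4, the water channel gene beside CHST9, was lower (log2 -1.79 ± 0.22, edgeR adjusted p = 1.6e-05), with 0.938 CPM in Empty and 0.270, 0.280 and 0.267 CPM in Z2, Z5 and Z9. AQP4 met the ratio of the rule (3.36) and was left out only because its Empty mean was just under 1 CPM. SLC43A3, beside RTN4RL2, was at -1.44 ± 0.13, but it met the rule itself and was set aside by symbol only. Its fall was thus set by the rule and nothing is read from it, though it is counted among the 16 called lower. SORCS2, which overlaps PSAPL1 on the other strand, was at -0.71 ± 0.082 (edgeR adjusted p = 6.8e-06). BOK, which lies opposite BOK-AS1, rose by 0.40 ± 0.059 (edgeR adjusted p = 9.7e-05), while the antisense RNA was chosen for being lower. ELFN1-AS1, opposite ELFN1, was at -0.60 ± 0.18 (edgeR adjusted p = 0.0220), and lost its call without Empty well b or c (adjusted p up to 0.116). CLYBL, the next tested gene to ZIC5 and ZIC2, rose by 0.46 (edgeR adjusted p = 0.00181).

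**Figure D4:**
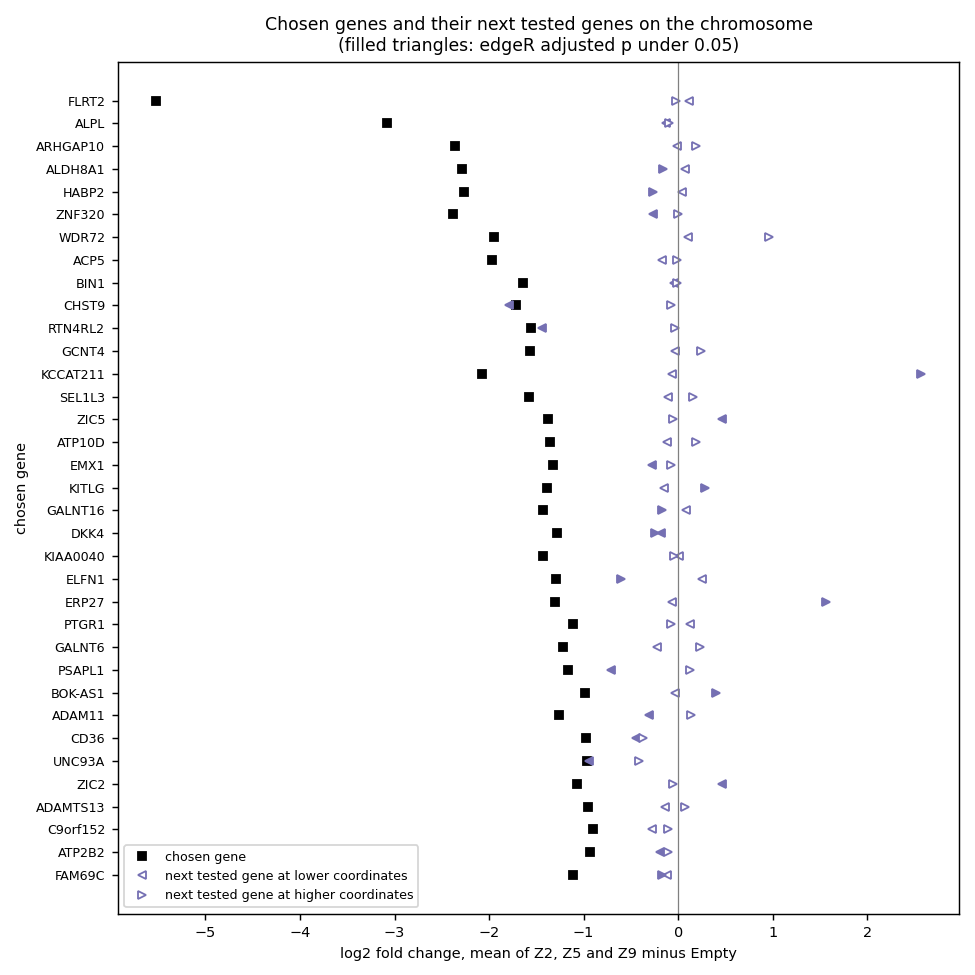
Log2 fold changes of the mean of Z2, Z5 and Z9 minus Empty (edgeR) for chosen genes (black squares) and the next tested gene on either side (triangles, filled where the adjusted p is under 0.05). Most neighbours lie near 0, with a median of -0.06. AQP4, which met the ratio of the rule but not its level, lies near the value of CHST9. SLC43A3 lies near that of RTN4RL2, but it met the rule itself and was set aside by symbol only.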

How the data were processed

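RNA was sequenced from 12 wells, 3 for each of 4 stable HepG2 lines, grouped by their titles. The deposited values are whole-number counts per gene symbol. The processing notes of the submitters name STAR, featureCounts and hg38 without versions. The annotation, like the strand setting, is not given in the sources used here. CPM used raw library totals. The test was edgeR's quasi-likelihood test (edgeR 4.0.16, R 4.3.3; genes kept by filterByExpr, TMM scaling, robust fit of 4 line means to 12 libraries, 8 residual degrees of freedom, common biological coefficient of variation 0.0696), adjusted by Benjamini and Hochberg over 15289 genes, and checked on simulated counts. DESeq2 1.42.0 and other alternatives are given in the closing section. The members and gene lists were chosen with earlier results of these data known.

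Every member but 1, which is not reported here, is named. Well values are given for the 12 protein-coding members with the largest ratio, the 6 with the highest Empty mean and 6 with an Empty mean under 2 CPM. Genes outside the members come from gene lists, share a symbol stem with a member, lie just outside the limits of the rule or were set aside by symbol. The exceptions are the chromosomal neighbours and genes whose call depended on a well, which were named after their values were seen.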

Additional observations from a re-analysis of the deposited data

How the results depend on the processing

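The number of genes that met the rule was 77 with a 1.5-fold minimum and 9 with an Empty minimum of 5 CPM, against 37. It was 34 to 43 with a well left out, and 29 of the 37 met the rule whichever well was left out. For Z9 minus Z2 the DESeq2 test called 4 members (ADAM11, FAM69C, ATP2B2 and KCCAT211), the minimum of 1 CPM in 3 libraries called 1 (ATP2B2), the replicate block called 3 (FAM69C, ATP2B2 and KCCAT211), and leaving out a well called 0 to 2, with ADAM11 and FAM69C called without Z2 well a. For any difference among the lines DESeq2 called 1 and the replicate block 2. Over all genes, DESeq2, the replicate block and a fit of only the lines compared called 9.87%, 9.89% and 0.215% in Z9 minus Z2 against 5.17%, 3.24%, 3.19% and 4.45% in Z9 minus Z5 against 1.52%, and 8.05%, 6.38% and 0.831% among the lines against 2.24%. In Z5 minus Z2 DESeq2 called 9 genes against 1, no member among them. Same-letter wells correlated at -0.101 to 0.173, and those lettered a were all positive, at 0.0388 to 0.173. Not every well correlated best with its own letter. Empty c was at 0.116 with Z9 a and at most at 0.09 with a well of its own letter, Z2 c. These correlations do not settle whether wells of a letter share a batch. The letters were not taken as pairs in the main fit, and the replicate block above is the alternative that uses them. Over all genes, 3911 were called in the mean of the 3 lines minus Empty, and 2107 to 4787 with a well left out, lowest without Empty well a. Of 70 neighbours, with SLC43A3 included, 14 to 20 were called lower over the settings, an alternative added after the data were seen. The cause of these shifts was not tested. With 1 line per vector, 3 wells a line and low counts limit what differences between lines could be detected.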
